A study of Mus musculus with 13 samples.

Results

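The genes described are those of the calcineurin and NFAT pathway. They are the calcineurin catalytic subunits Ppp3ca, Ppp3cb and Ppp3cc, the regulatory subunit Ppp3r1, the calcineurin inhibitor Rcan1, and the transcription factors Nfatc1, Nfatc2, Nfatc3, Nfatc4 and Nfat5. These 10 genes were chosen by name from the 47937 genes in the table of read counts, by a rule that uses no measured value but that was set with earlier results of these data known. RNA had been sequenced from thymocytes of C57BL/6 mice sorted as double negative (DN) stages DN3 and DN4, cells that have not yet gained CD4 or CD8 and that differ in surface CD25. The mice were WT;Lck-Cre+ (Wt) or Opa1fl/fl;Lck-Cre+, in which Cre is meant to remove floxed sequence of Opa1, a gene for a protein that shapes mitochondria. All mice carried the Lck-Cre transgene, so Cre is present in controls too, and it acts where the Lck promoter is active. They were 6 weeks old by the labels, and the cells were neither treated nor cultured before RNA extraction. Mice of the second kind are called KO-labelled and carry the names KO45, KO49 and KO51; both stages were sequenced from each of them, as from WT05, WT46 and WT48, and WT40 adds a library of DN4 cells. This makes 13 libraries of 7 mice, with n = 4 for Wt DN4 and n = 3 for the other groups.

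Calcineurin is a phosphatase that is switched on by calcium and calmodulin. The calcium comes from internal stores and from outside the cell once the T cell receptor, or the pre-T cell receptor that thymocytes carry around β-selection, has signalled. Calcineurin then removes phosphates from the NFATc proteins, which enter the nucleus and act with partners such as AP-1, whereas kinases return them to the cytoplasm. NFAT5 shares the DNA binding domain but lacks the calcineurin docking region, and is known for the response to osmotic stress. In thymocytes the pathway is known for its part in selection, and the mRNA level of these genes says nothing on whether the phosphatase was active.

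Libraries held 5926848 to 14148661 counts. The DN3 library of WT05 stood apart: 39.4% of its counts fell on the 5 genes that exceeded 1% of any library, led by Gm42418 and Lars2, against 1.35% to 2.67% in the other 12, and its TMM scaling factor was 0.578. Opa1 counted over the whole gene was at 90.6 ± 2.79 CPM (counts scaled to the size of the library; SD, n = 3) in KO-labelled and 98.3 ± 11.7 in Wt (n = 3) DN3 cells, and at 82.1 ± 5.53 (n = 3) and 89.0 ± 3.93 (n = 4) in DN4 cells. These whole-gene counts did not separate the genotypes and cannot show the loss of single exons, and the mice are therefore called KO-labelled. Il2ra, which encodes the CD25 used to tell the stages apart, was at 727 to 1337 CPM in DN3 and 9.78 to 24.1 CPM in DN4 libraries. Counts of Y-linked genes came only from WT40 and WT46 (3247 to 3716 a library, 0 in the others), so sex was not balanced between the genotypes.

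Markers of other cells were summed per library. The sum of 8 B cell markers was 285 to 427 CPM in DN3, mostly Ighm at 262 to 372 CPM, and 945 to 5784 CPM in DN4. In DN4 it was 3140, 1121, 1299 and 5784 CPM for WT05, WT40, WT46 and WT48. For KO45 it was 2335 CPM, for KO49 3649 CPM and for KO51 945 CPM. Pax5, the factor that defines B cells, was at 0 to 2.30 CPM in DN3 and at 25.9 to 387 CPM in DN4. The sum of 6 markers of immature single positive and double positive cells was 588 to 841 CPM in DN3 and 533 to 3447 CPM in DN4, highest in KO45. The 7 T lineage genes summed to 4937 to 5776 CPM in DN3 and 3857 to 6071 CPM in DN4, and the 5 DN3 genes to 1392 to 2190 and 138 to 248 CPM. The 4 plasmacytoid dendritic genes summed to 88.6 to 120 CPM in DN3 and 87.7 to 599 CPM in DN4, the 6 NK and innate lymphoid genes to 239 to 326 and 229 to 447 CPM, and the 4 gamma delta T genes to 433 to 627 and 539 to 1693 CPM. Of the plasmacytoid dendritic genes, Irf8 was at 7.32 to 14.4 CPM in DN3 and 27.3 to 197 CPM in DN4. Spib was at 17.9 to 51.8 and 22.9 to 326 CPM, and Tcf4 at 52.0 to 88.1 and 32.8 to 75.8 CPM. Siglech was at 0 CPM in DN3 and at most 0.293 CPM in DN4. Among the DN4 libraries Irf8 and Spib were highest in WT48 and lowest in KO51, as was the B cell sum. The 6 myeloid genes reached at most 31.6 CPM, the 6 erythroid genes 6.19 CPM and the 6 stromal genes 246 CPM in any library. A lineage-negative gate, as the study describes for its flow cytometry, would be meant to remove B cells, and whether the sort for RNA used it is not given in the sources used here. In bulk RNA, fewer cells of a type and less RNA per cell cannot be told apart.

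Promoter sequences from RefSeq (GRCm38.p6, 250 bases before to 50 bases after a start) were found for 7 of the 10 genes, as 10 windows; Ppp3ca, Ppp3cc and Nfatc1 had none. They were searched for GGAAA, the core that NFAT proteins bind, on both strands (TTTCC on the other). Of all 32851 mouse promoter windows 61.3% held at least 1 match, with a median of 1. Ppp3cb had 4 matches, as many or more than which were found in 2.65% of windows, and the windows of Ppp3r1 had 0. Nfatc2 had 3 and 1 in its windows, Nfatc3 1 and 0, Nfatc4 3 and Nfat5 2. Rcan1 is transcribed from several starts and its inner promoter is a known NFAT target, which is why both windows are shown. The outer window had 0 matches and the inner window 3, a number that 9.42% of windows reached. Ppp3cb is shown because it held the most matches of these windows. The windows lie on GRCm38.p6 at chr16:92466120-92466419 and chr16:92400029-92400328 for Rcan1 and chr14:20546524-20546823 for Ppp3cb, all on the minus strand. They read 5′ to 3′ along the gene, and capitals mark the matches.
Rcan1, outer: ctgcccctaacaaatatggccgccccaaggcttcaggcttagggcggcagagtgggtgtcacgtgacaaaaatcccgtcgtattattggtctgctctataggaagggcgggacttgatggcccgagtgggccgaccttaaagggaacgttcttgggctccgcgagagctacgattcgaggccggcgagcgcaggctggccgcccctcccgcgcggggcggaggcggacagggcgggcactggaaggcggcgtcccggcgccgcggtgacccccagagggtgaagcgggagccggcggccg
Rcan1, inner: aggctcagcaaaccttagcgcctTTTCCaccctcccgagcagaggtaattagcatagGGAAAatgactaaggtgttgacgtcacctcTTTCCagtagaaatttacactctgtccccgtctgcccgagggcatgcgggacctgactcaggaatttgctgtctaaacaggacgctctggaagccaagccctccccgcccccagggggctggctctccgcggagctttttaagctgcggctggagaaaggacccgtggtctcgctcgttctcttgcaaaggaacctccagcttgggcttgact
Ppp3cb: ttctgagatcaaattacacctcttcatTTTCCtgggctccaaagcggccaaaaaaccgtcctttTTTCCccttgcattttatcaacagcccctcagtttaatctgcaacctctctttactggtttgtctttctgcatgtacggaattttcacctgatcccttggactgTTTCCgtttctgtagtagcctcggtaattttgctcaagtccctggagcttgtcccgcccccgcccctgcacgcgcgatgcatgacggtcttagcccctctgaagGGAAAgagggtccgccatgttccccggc
A match describes letters and not a site in use, and the counts pool all transcripts of a gene, so the level of Rcan1 below is not that of either promoter.

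Levels between genes were compared as CPM per kilobase of exon (CPM per kb), since longer transcripts give more reads. Ppp3r1, the calcium-binding B subunit that every calcineurin holds, was the highest of the 10 genes in each group, at 29.5 ± 1.90 CPM per kb in Wt DN3 and 37.9 ± 3.89 in Wt DN4. Nfatc3, Ppp3cb and Nfatc1 followed, at 22.1 ± 6.66, 16.8 ± 1.79 and 14.0 ± 1.70 CPM per kb in Wt DN3 and 29.6 ± 3.81, 17.8 ± 2.06 and 22.9 ± 2.91 CPM per kb in Wt DN4. Nfat5 and Ppp3cc came next, at 7.53 ± 4.03 and 4.17 ± 0.411 CPM per kb in Wt DN3 and 7.12 ± 1.71 and 10.6 ± 3.58 CPM per kb in Wt DN4. Rcan1, Ppp3ca and Nfatc2 were lowest among the genes detected throughout, at 2.77 ± 0.227, 2.61 ± 0.422 and 2.59 ± 0.735 CPM per kb in Wt DN3. Nfatc4 had 2 counts in the DN4 library of KO49 and 0 in the other 12, where a count of 0 allows up to 3 counts. It was not tested.

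Many neighbours in this order overlapped. In Wt DN4 cells Ppp3r1 overlapped with Nfatc3, although it was the higher in each of the 4 libraries, and Nfatc3 overlapped with Nfatc1. In Wt DN3 cells the ranges of Ppp3r1, Nfatc3, Ppp3cb and Nfatc1 overlapped from neighbour to neighbour, and so did those of Rcan1, Ppp3ca and Nfatc2. In KO-labelled DN3 cells Ppp3r1 (28.3 CPM per kb or above) stood clear of Ppp3cb (19.4 or below), and Ppp3cb overlapped with Nfatc3. In KO-labelled DN4 cells Nfatc3 (27.9 CPM per kb or above) stood clear of Nfatc1 (22.6 or below). With the length of the longest transcript in place of all exons, 40 to 44 of the 45 pairs of genes kept their order in a group, and Ppp3r1 was then not the highest in any.

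**Figure D1:**
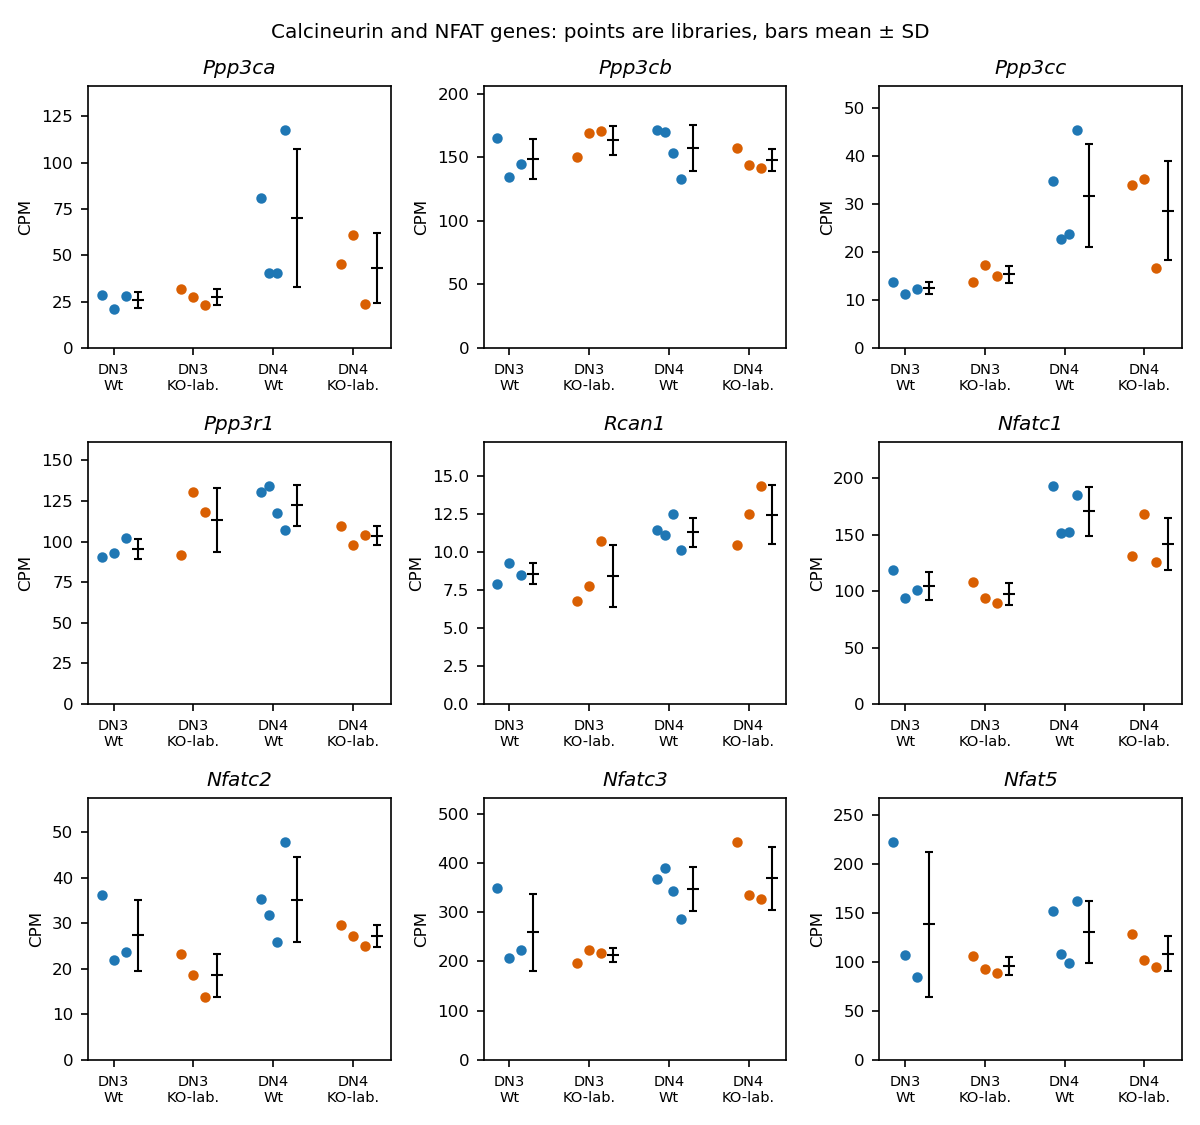
CPM of the 9 detected genes in each library (points) by stage and genotype, with the group mean and SD beside them (bars), on axes that start at 0. Ppp3ca and Ppp3cc spread more widely among DN4 than among DN3 libraries, and the highest Nfatc3 and Nfat5 values of Wt DN3 cells (349 and 223 CPM) come from WT05.

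The first comparison asks how these genes change across β-selection in Wt mice. Ppp3ca, Ppp3cc and Nfatc1 rose from DN3 to DN4, by 2.66-fold, 2.52-fold and 1.61-fold. Thus 3 of the 9 genes tested were called higher (quasi-likelihood test of edgeR, with a Benjamini-Hochberg adjusted p over all genes of less than 0.05), against 13.4% of the 12691 genes tested. None of the 9 was called lower, against 9.43% of all genes, and all 4 of the 9 with an unadjusted p under 0.05 were higher in DN4, against 18.9% of all genes (35.5% in either direction). DESeq2 called 4 and limma-voom 2 of the 9, all higher, against 16.2% and 11.6% of all genes called higher by these tools. In 5 of the 9 genes every DN4 library was above every DN3 library, which held for 19.9% of all genes. The median log2 fold change was 0.37 over the 9 genes and -0.03 over all genes. All 9 had at least 27 counts in every library, so none entered the test only through the stage where it was high. In KO-labelled mice Nfatc1 and Nfatc3 rose, by 1.43-fold and 1.71-fold. This was 2 of 9, against 11.2% of 12580 genes called higher. None of the 9 was called lower, against 7.34% of all genes, and all 4 with an unadjusted p under 0.05 were higher in DN4, against 18.1% of all genes (33% in either direction). DESeq2 called 3 and limma-voom 1, all higher, against 14% and 9.9% of all genes. Of the 9 genes, 3 had every DN4 library above every DN3 library, which held for 22% of all genes. The median was 0.52 over the 9 genes, with -0.02 over all genes. With the mouse as a replicate block 6 of the 9 were called higher in KO-labelled mice, against 18.9% of all genes, and 4499 instead of 2338 genes were called in all. In Wt mice the block, fitted to mice with both stages and so without WT40, left 3 called. Of all genes 12.4% were called higher in a block fit that kept WT40.

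Among the catalytic subunits, Ppp3ca encodes the α isoform (chromosome 3, 136670124 to 136937727 on GRCm38, plus strand). It was at 28.7, 21.2 and 28.2 CPM in the DN3 libraries of WT05, WT46 and WT48 and at 81.0, 40.5, 40.7 and 118 CPM in the DN4 libraries of WT05, WT40, WT46 and WT48. The DN4 values all lay above the DN3 values, and those of WT05 and WT48 lay far above the other pair. Ppp3ca had a log2 fold change of 1.41 ± 0.40 (SE; adjusted p = 0.0339, edgeR). In KO-labelled mice Ppp3ca was at 31.6, 27.6 and 23.3 CPM in DN3 and 45.3, 60.9 and 23.5 CPM in DN4 in KO45, KO49 and KO51. The groups overlapped, because KO51 had almost the same level at both stages. Its log2 fold change was 0.63 ± 0.31 (adjusted p = 0.207, and 0.0485 with the mouse as a block). The call in Wt mice was lost without any of 4 single libraries, at log2 fold changes of 1.28 to 1.48. The adjusted p (edgeR) was 0.059 without the DN3 library of WT05, 0.112 without that of WT46 and 0.0838 without that of WT48. Without the DN4 library of WT05 it was 0.0899. With each of the 7 libraries left out in turn, the log2 fold change ranged from 1.04 to 1.60. The call was also lost with limma-voom (1.30, adjusted p = 0.0652).

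Ppp3cc encodes the γ isoform (chromosome 14, 70217865 to 70289471, minus strand), long known from testis and found in lymphocytes. It was at 13.8, 11.3 and 12.2 CPM in Wt DN3 and 34.8, 22.6, 23.8 and 45.4 CPM in Wt DN4, so that no DN4 value came near the DN3 range, and WT48 was again the highest. Ppp3cc had a log2 fold change of 1.33 ± 0.27 (adjusted p = 0.00894, edgeR), and the call held with each library left out (1.11 to 1.47). In KO-labelled mice it was at 13.7, 17.3 and 15.01 CPM in DN3 and 34.0, 35.2 and 16.6 CPM in DN4. The DN4 library of KO51 fell within the DN3 range while the other pair lay far above it. The log2 fold change was 0.88 ± 0.28 (adjusted p = 0.0637; 0.0126 with the mouse as a block, and 0.00306 without the DN4 library of KO51). Its antisense neighbour Gm49417 shares 91 exon bases.

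Ppp3cb, the β isoform and the main calcineurin of T cells (chromosome 14, 20499364 to 20546573, minus strand), was at 135 to 166 CPM in Wt DN3 and 133 to 172 CPM in Wt DN4. In KO-labelled mice it was at 150 to 171 CPM in DN3 and 142 to 157 CPM in DN4. The stages overlapped in both genotypes. The log2 fold changes were 0.06 (95% interval -0.23 to 0.35) and -0.17 (-0.40 to 0.06), with adjusted p = 0.792 and 0.274 (edgeR). Its promoter window, with 4 GGAAA matches, was the only one found for a catalytic subunit.

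The make-up of the catalytic subunits differed between the stages. Ppp3cb supplied 71.5%, 72.1% and 70.3% of their summed CPM per kb in the DN3 libraries of WT05, WT46 and WT48 and 49.7%, 62.4%, 59.1% and 35.8% in the DN4 libraries of WT05, WT40, WT46 and WT48. In KO-labelled mice the share was 68.8%, 69.2% and 72.5% in DN3 and 52.9%, 47.8% and 67.0% in DN4. Every DN4 share was below every DN3 share, with KO51 nearest and WT48 farthest. Across the 7 DN4 libraries the share fell in the exact order in which the B cell marker sum rose, from 67.0% at a sum of 945 CPM in KO51 to 35.8% at 5784 CPM in WT48, and the part of B cells in it was not tested. Ppp3cc supplied 17.7% ± 0.20 in Wt DN3 and 29.4% ± 5.01 in Wt DN4, and 19.4% ± 1.30 and 30.4% ± 6.28 in KO-labelled DN3 and DN4 (SD, n = 3, 4, 3 and 3). Ppp3ca supplied 11.0% ± 1.06, 18.9% ± 6.97, 10.5% ± 2.06 and 13.7% ± 4.01. The drop in the mean share of Ppp3cb was 19.6 percentage points for Wt cells and 14.3 for KO-labelled cells. Without any correction for length it was 17.5 and 11.1 points. The stages then overlapped, with a Ppp3cb share of 77.9% in the DN4 library of KO51 and 76.9% in the DN3 library of KO45.

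**Figure D2:**
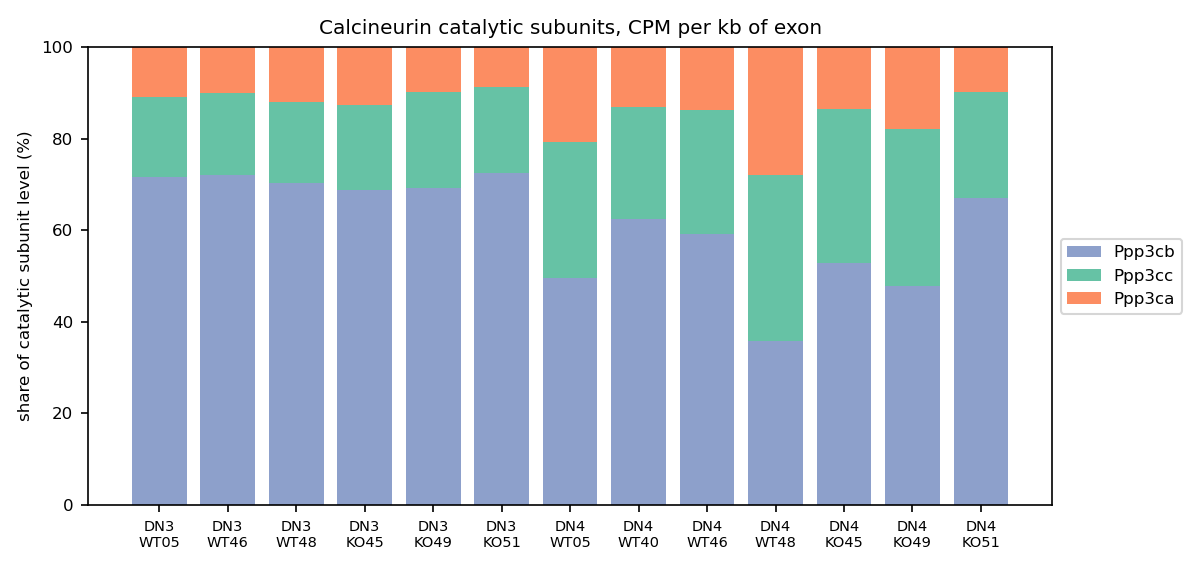
Share of each catalytic subunit in the summed CPM per kb of Ppp3ca, Ppp3cb and Ppp3cc in each library, as stacked bars that add to 100%. The Ppp3cb share lies between 68.8% and 72.5% in the 6 DN3 libraries and between 35.8% and 67.0% in the 7 DN4 libraries.

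The regulatory subunit Ppp3r1 (chromosome 11, 17159263 to 17200375, plus strand) was at 90.7, 93.0 and 102 CPM in Wt DN3 and 130, 134, 117 and 107 CPM in Wt DN4. No Wt DN4 library reached down to the DN3 range, yet the gap was small. The log2 fold change of 0.33 ± 0.11 missed the threshold (adjusted p = 0.0669, edgeR), passed it with DESeq2 (0.0368) and passed it without the DN4 library of WT48 (0.0393). In KO-labelled mice it was at 91.4, 130 and 118 CPM in DN3 and 109, 97.8 and 104 CPM in DN4. Those stages overlapped, with 2 of the 3 mice lower in DN4, and the log2 fold change was -0.15 ± 0.13 (adjusted p = 0.477). Wdr92 shares 462 exon bases with Ppp3r1 on the same strand, so part of these reads may be of either gene. Per kb of all exons, Ppp3r1 was at 1.26 ± 0.167 times the summed catalytic subunits in Wt DN3 and 1.10 ± 0.246 in Wt DN4. It was at 1.32 ± 0.162 in KO-labelled DN3 and 1.07 ± 0.236 in KO-labelled DN4. With the longest transcript, Ppp3r1 was below the catalytic sum in each group. It was at 33.35 CPM per kb in Wt DN3, where Ppp3cb alone was at 38.7. In KO-labelled DN3 and DN4 it was at 39.6 and 36.3, with Ppp3cb at 42.7 and 38.6. In Wt DN4 it was at 42.8, with Ppp3cb, Ppp3cc and Ppp3ca at 41.0, 12.7 and 14.7.

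Rcan1 encodes an inhibitor that binds calcineurin and is itself induced by NFAT (chromosome 16, 92391953 to 92470867, minus strand). It was at 7.90, 9.29 and 8.48 CPM in Wt DN3 and 11.4, 11.1, 12.5 and 10.1 CPM in Wt DN4. The stages did not overlap, but the log2 fold change of 0.37 ± 0.17 was not called (adjusted p = 0.164, edgeR). In KO-labelled mice it was at 6.76, 7.72 and 10.7 CPM in DN3 and 10.4, 12.5 and 14.3 CPM in DN4. Each KO-labelled mouse had more in DN4 than in DN3, by 0.42 to 0.66 on the log2 CPM scale, although the DN3 value of KO51 lay above the DN4 value of KO45. The log2 fold change was 0.54 ± 0.24 (adjusted p = 0.158; 0.0428 with the mouse as a block). With 27 to 181 counts a library, Rcan1 was the least deeply counted of the 9 genes.

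Nfatc1 is the NFAT known for inducing itself after receptor signals (chromosome 18). It was at 119, 94.3 and 101 CPM in Wt DN3 and 194, 152, 153 and 185 CPM in Wt DN4, and at 108, 94.4 and 89.2 CPM in KO-labelled DN3 and 131, 169 and 126 CPM in KO-labelled DN4. The stages were fully apart in both genotypes. The log2 fold change was 0.68 ± 0.14 in Wt (adjusted p = 0.00879, edgeR) and 0.52 ± 0.15 in KO-labelled mice (adjusted p = 0.0475). The Wt call held with each single library left out (0.61 to 0.77). It was lost without the libraries with Y-linked counts (0.76, adjusted p = 0.0615) and without the DN4 libraries of WT05 and WT48 (0.52, adjusted p = 0.0575). The KO-labelled call was lost with limma-voom (0.51, adjusted p = 0.0536) and without any of 4 single libraries. The log2 fold change was then 0.48 and 0.44 without the DN3 libraries of KO49 and KO51 (adjusted p = 0.136 and 0.150), 0.55 without the DN4 library of KO45 (0.0604) and 0.37 without that of KO49 (0.140). With the mouse as a block the adjusted p was 0.00832.

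Nfatc3, an NFAT that thymocytes hold in quantity (chromosome 8, 106058840 to 106130537, plus strand), was at 197, 224 and 217 CPM in KO-labelled DN3 and 443, 335 and 328 CPM in KO-labelled DN4. All DN4 values were far above all DN3 values. Nfatc3 changed by 0.77 ± 0.14 on the log2 scale (adjusted p = 0.00707, edgeR) and stayed called with each library left out (0.59 to 0.84). In Wt mice it was at 349, 206 and 223 CPM in DN3 and 368, 390, 342 and 286 CPM in DN4. The DN3 library of WT05, whose counts were dominated by a few genes, reached into the DN4 range, and the other 2 DN3 values lay below every DN4 value. The Wt log2 fold change was 0.39 ± 0.20 (adjusted p = 0.2), and 0.66 ± 0.14 (adjusted p = 0.0149) without that library. Esrp2 on the opposite strand shares 219 exon bases with Nfatc3.

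Nfatc2, the NFAT that is prominent in mature T cells (chromosome 2, 168476410 to 168601657, minus strand), was far lower. It was at 36.3, 22.0 and 23.8 CPM in Wt DN3 and 35.2, 31.7, 26.0 and 47.9 CPM in Wt DN4, and at 23.3, 18.6 and 13.8 CPM in KO-labelled DN3 and 29.7, 27.1 and 24.9 CPM in KO-labelled DN4. The Wt stages overlapped through WT05, and the KO-labelled stages did not overlap. The log2 fold changes were 0.36 ± 0.25 (adjusted p = 0.355, edgeR) and 0.52 ± 0.21 (adjusted p = 0.133; 0.0214 with the mouse as a block). Of the summed CPM per kb of Nfatc1 to Nfatc4, the means of the 4 groups were 53.0% to 59.1% for Nfatc3. They were 36.0% to 41.0% for Nfatc1 and 4.86% to 6.63% for Nfatc2. In single libraries Nfatc3 supplied 45.4% to 64.95% and Nfatc1 30.2% to 46.1%. In the DN4 library of WT48 Nfatc1 (46.1%) was above Nfatc3 (45.4%). The sum of Nfatc1 to Nfatc4 was 38.7 ± 9.08 and 55.7 ± 3.73 CPM per kb in Wt DN3 and DN4. In KO-labelled DN3 and DN4 it was 32.9 ± 0.997 and 53.0 ± 5.56 CPM per kb.

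Nfat5 (chromosome 8, 107293470 to 107379517, plus strand) was at 223, 108 and 84.7 CPM in Wt DN3 and 152, 109, 99.5 and 162 CPM in Wt DN4. The stages overlapped, and the DN3 library of WT05 was the highest of all 13. The log2 fold change was -0.10 (95% interval -0.85 to 0.66, adjusted p = 0.869, edgeR), and it was 0.41 without that library and 0.25 with library totals in place of TMM. In KO-labelled mice it was at 88.4 to 107 CPM in DN3 and 95.1 to 128 CPM in DN4, a log2 fold change of 0.15 (-0.18 to 0.48, adjusted p = 0.510). In Wt mice it was also above 0, at 0.01 to 0.06, without the DN4 library of WT46, without the libraries with Y-linked counts, with limma-voom and with the mouse as a block, so no direction between the Wt stages can be given.

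**Figure D3:**
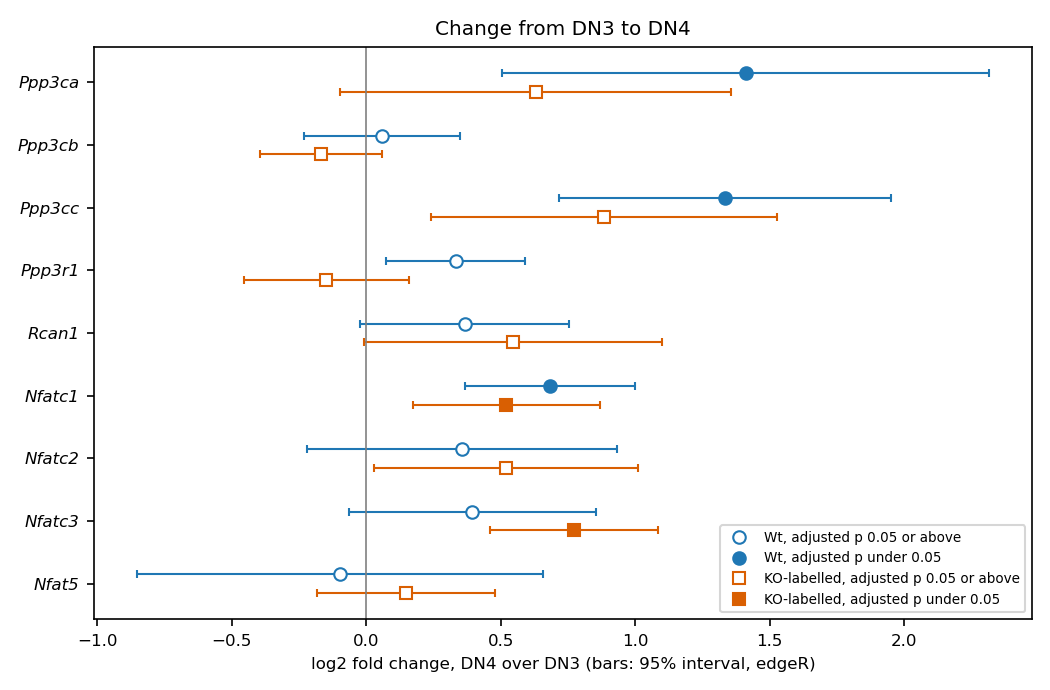
Log2 fold change of DN4 over DN3 with its 95% interval for 9 genes, circles for Wt and squares for KO-labelled mice, filled where the adjusted p was under 0.05 (edgeR). Ppp3ca, Ppp3cc and Nfatc1 are filled for Wt and Nfatc1 and Nfatc3 for KO-labelled mice, and the intervals of the genotypes overlap for each gene.

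Some of these levels moved with the B cell marker sum across the 7 DN4 libraries. On log2 scales, Pearson's r was 0.963 for Ppp3cc (exact two-sided permutation p = 0.000198, the smallest possible with 7 libraries; adjusted p = 0.00357 over the 18 relations of 9 genes with 2 marker sums). Spearman's rho was 1.0 (adjusted p = 0.00714), and r was 0.967 without KO51 and WT48, the libraries farthest from the median sum. For Ppp3ca r was 0.928 (exact permutation p = 0.00278, adjusted p = 0.025), rho 0.964 (adjusted p = 0.025) and r 0.831 without the same libraries. For Nfatc1 r was 0.731 (exact permutation p = 0.0716, adjusted p = 0.184) with rho 0.786 (adjusted p = 0.216), and it was 0.465 without them. Nfat5 and Nfatc2 had an r of 0.756 and 0.717 (exact permutation p = 0.0647 and 0.0562, adjusted p = 0.184 for both) and a rho of 0.714 and 0.643 (adjusted p = 0.226 and 0.278), with an r of 0.442 and 0.163 without them. Nfatc3 had an r of -0.331 (exact permutation p = 0.468, adjusted p = 0.562) and a rho of -0.286 (adjusted p = 0.667). With the sum of immature single positive and double positive markers Nfatc3 had an r of 0.853 (exact permutation p = 0.0177, adjusted p = 0.106) and a rho of 0.679 (adjusted p = 0.246), but 0.270 without KO45 and WT48, so that relation rests on those libraries. With the same sum Nfatc1 had an r of -0.796 (exact permutation p = 0.0310, adjusted p = 0.139) and a rho of -0.857 (adjusted p = 0.143), and an r of -0.692 without those libraries. Ppp3ca had an r of -0.692 with it (exact permutation p = 0.0833, adjusted p = 0.188), a rho of -0.750 (adjusted p = 0.226) and an r of -0.699 without them. These 7 libraries pool both genotypes, and the part of B cells in the levels was not tested.

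The stage comparisons were also run without the DN4 libraries with the higher B cell sums, a choice made after the data were seen. Without WT05 and WT48, 1 of the 9 genes was called in Wt mice, against 13.7% of all genes in either direction (1766 calls, where all libraries gave 2903). This was Ppp3cc, with a log2 fold change of 0.89 ± 0.17 (adjusted p = 0.0198, edgeR). Ppp3ca was then at 0.63 ± 0.17 (adjusted p = 0.0629) and Nfatc1 at 0.52 ± 0.14 (adjusted p = 0.0575). The Wt DN4 libraries left, WT40 and WT46, both have Y-linked counts, so the B cell sum and sex cannot be told apart here. Without KO45 and KO49, 0 of the 9 were called in KO-labelled mice, against 5.38% of all genes in either direction (714 calls in place of 2338). This fit holds 1 DN4 library, KO51, and assumes that it varies as the DN3 libraries do. Nfatc3 was at 0.63 ± 0.17 (adjusted p = 0.0754), Ppp3cc at 0.12, and Ppp3ca at -0.23. The B cell sum of KO51, 945 CPM, was still above every DN3 value.

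**Figure D4:**
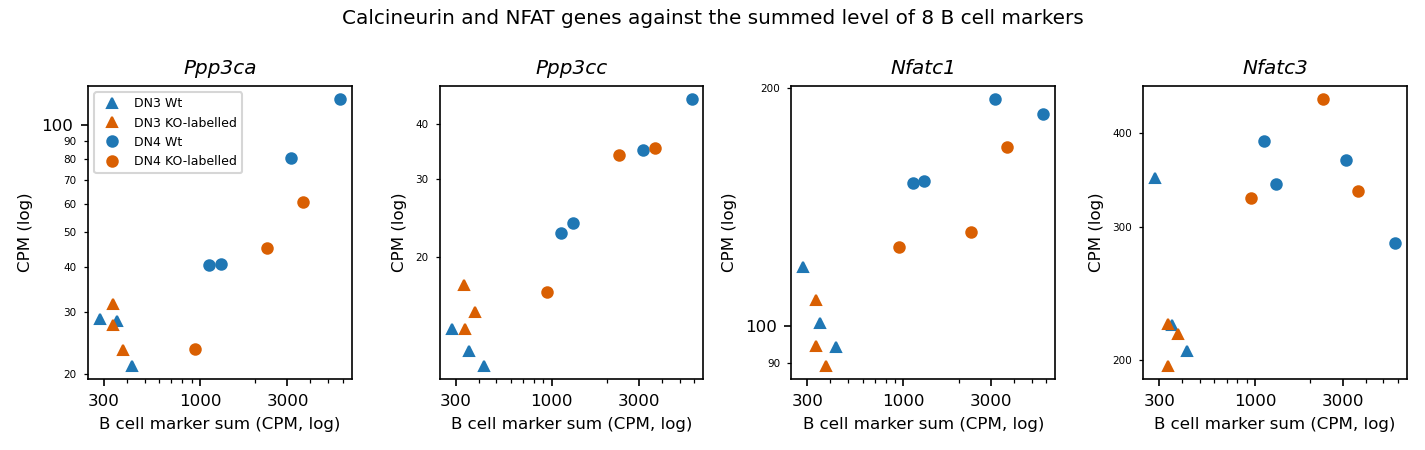
CPM of Ppp3ca, Ppp3cc, Nfatc1 and Nfatc3 against the summed CPM of 8 B cell markers in 13 libraries, both axes logarithmic, triangles for DN3 and circles for DN4. Among the 7 DN4 libraries Ppp3cc and Ppp3ca are higher where the sum is higher (r = 0.963 and 0.928), and Nfatc3 is not (r = -0.331).

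The genotype comparison asks whether these genes differ between KO-labelled and Wt cells of a stage. In DN3, 0 of the 9 genes were called by edgeR, DESeq2 or limma-voom, against 0%, 0.0248% and 0% of 12105 genes, and 0 had an unadjusted p under 0.05, against 1.39%. The genotypes overlapped for all 9 genes, whereas 6.44% of all genes did not overlap. The largest difference was that of Nfatc2, whose log2 fold change of KO-labelled over Wt was -0.54 ± 0.26 (95% interval -1.14 to 0.06, adjusted p = 1, edgeR). Nfat5 was at -0.52 (-1.27 to 0.22), Nfatc3 at -0.29 (-0.77 to 0.18) and Nfatc1 at -0.11 (-0.44 to 0.22). Of the 6 DN3 libraries that of WT05 had the highest value of Nfatc2, Nfat5 and Nfatc3, and leaving out that library brought Nfat5 to -0.0019, Nfatc3 to -0.02 and Nfatc2 to -0.30. Of the calcineurin subunits Ppp3cc was at 0.30 (-0.14 to 0.75), Ppp3r1 at 0.24 (-0.12 to 0.60), Ppp3cb at 0.14 (-0.17 to 0.44) and Ppp3ca at 0.08 (-0.35 to 0.52). Rcan1 was at -0.04 (-0.63 to 0.54). Without the library with Y-linked counts 0 of the 9 were called, and 1, Nfatc2 at -0.68, had an unadjusted p under 0.05 (0.0446), against 3.41% of all genes in that fit.

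In DN4, 0 of the 9 genes were called by any of these tools, against 0.0535%, 0.39% and 0.0611% of 13084 genes. None of the 9 had an unadjusted p under 0.05, against 5.46% of all genes, and the genotypes again overlapped for all 9, with 7.08% of all genes not overlapping. Ppp3ca was at -0.65 ± 0.43 (95% interval -1.65 to 0.34, adjusted p = 0.909, edgeR), the widest interval of the 9, and at -0.24 without the DN4 libraries of KO49, WT05 and WT48, those with the highest B cell sums. Nfatc2 was at -0.33 (-0.78 to 0.12), Nfatc1 at -0.23 (-0.54 to 0.07), Nfat5 at -0.23 (-0.67 to 0.22) and Ppp3r1 at -0.20 (-0.46 to 0.05). Ppp3cc was at -0.11 (-0.83 to 0.62) and Ppp3cb at -0.05 (-0.32 to 0.22), while Nfatc3 and Rcan1 were at 0.12 (-0.24 to 0.49) and 0.17 (-0.20 to 0.53). The libraries with counts of Y-linked genes are all Wt. Without them, which leaves 2 Wt DN4 libraries, 0 of the 9 genes were called, but some differences were over 1.5 times as large and 3 of the 9 had an unadjusted p under 0.05, against 9.23% of all genes in that fit. Ppp3ca was then at -1.15 (unadjusted p = 0.0152, adjusted p = 0.475), Nfatc2 at -0.56 (0.0185 and 0.476) and Nfat5 at -0.49 (0.0241 and 0.487). Nfatc1 was at -0.37 (0.054 and 0.544). The 2 Wt libraries left, WT05 and WT48, are those with the highest B cell sums in Wt mice. The run without KO49, WT05 and WT48 in turn leaves WT40 and WT46 as its Wt libraries, both with Y-linked counts. Sex and the B cell sum thus cannot be told apart among the Wt DN4 libraries.

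**Figure D5:**
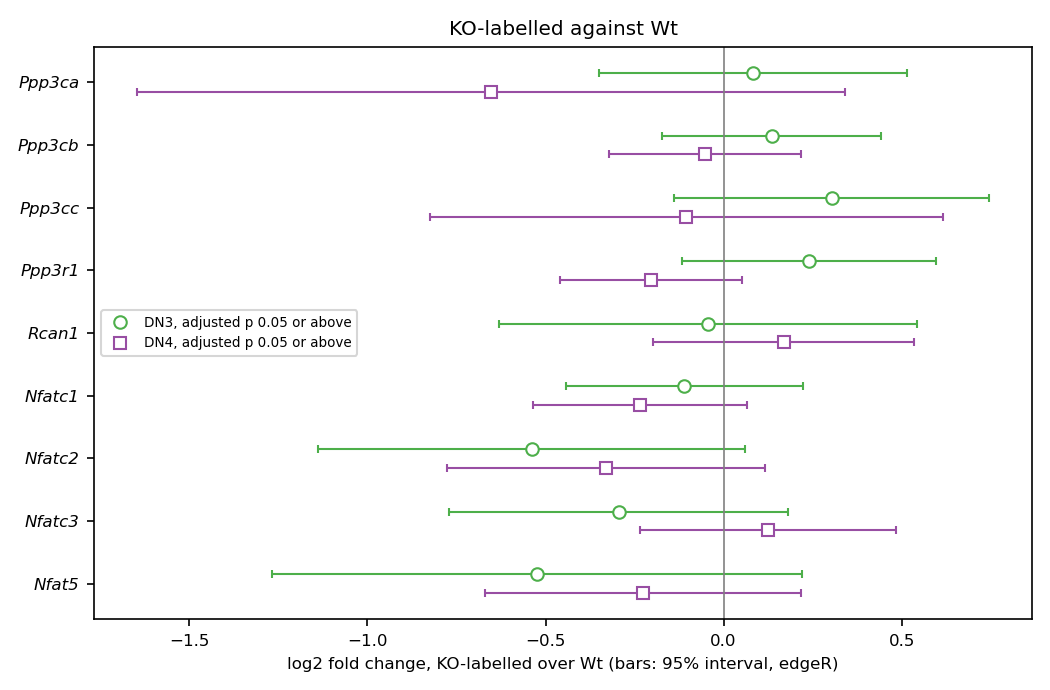
Log2 fold change of KO-labelled over Wt with its 95% interval for 9 genes, circles for DN3 and squares for DN4 (edgeR). All markers are open, since no adjusted p was under 0.05, and each interval includes 0.

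Whether the change from DN3 to DN4 differed between the genotypes was tested as the interaction of stage and genotype over the 13 libraries. edgeR called 0 of the 9 genes, as did DESeq2 and limma-voom, against 0%, 0.015% and 0% of 13361 genes, and 1 of the 9 had an unadjusted p under 0.05, against 3.59% of all genes. This was Ppp3r1, whose change was lower in KO-labelled mice by 0.48 on the log2 scale (SE 0.19, unadjusted p = 0.0213, adjusted p = 1). Both stages come from the same mice, so the mouse was also fitted as a block (edgeR), which leaves out WT40. Ppp3r1 was then at -0.42 (unadjusted p = 0.0709) and Ppp3ca at -0.94 (unadjusted p = 0.0213, adjusted p = 0.901). The gene that stands out thus differed between these fits, which differ in both the pairing and the libraries used. The DN4 level of Ppp3r1 was above its DN3 level in each of the 3 Wt mice with both stages, by 0.06 to 0.52 on the log2 CPM scale. Among the KO-labelled mice that difference was 0.26 in KO45, -0.42 in KO49 and -0.18 in KO51. The interaction was -0.78 ± 0.55 for Ppp3ca, -0.45 ± 0.41 for Ppp3cc, -0.16 ± 0.20 for Nfatc1 and 0.37 ± 0.26 for Nfatc3. The calls of Ppp3ca and Ppp3cc in Wt mice, and of Nfatc3 in KO-labelled mice, are thus not shown to differ between the genotypes.

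Upstream of calcineurin, 13 genes of calcium entry and release were all tested, and 5 were called higher and 1 lower in Wt DN4 cells (5 and 0 in KO-labelled). Over all genes tested, 13.4% were called higher and 9.43% lower in Wt and 11.2% and 7.34% in KO-labelled mice, the shares against which each list here is to be read. Without the DN4 libraries with the higher B cell sums (WT05 and WT48, or KO45 and KO49), 5 of the 13 were called in Wt and 1 in KO-labelled mice, where 1 DN4 library is left. These reduced fits called 13.7% and 5.38% of all genes in either direction, and their counts below are to be read against those shares. Itpkb, a kinase of the calcium-releasing messenger, rose by 1.03 ± 0.16 in Wt and 1.08 ± 0.14 in KO-labelled mice on the log2 scale. The channel subunits Orai2 and Orai1 rose in Wt mice by 1.02 ± 0.15 and 0.95 ± 0.16 (adjusted p = 0.00201 and 0.00444, edgeR), Orai2 from 70.6 ± 12.4 to 147 ± 14.6 CPM. In KO-labelled mice Orai2 was at 0.82 ± 0.22 (adjusted p = 0.0368) and Orai1 at 0.46 ± 0.25 (adjusted p = 0.241). Itpr2, a channel of the endoplasmic reticulum, fell by 1.10 ± 0.32 in Wt (adjusted p = 0.0367), and its DN3 library of WT05 was at 652 CPM against 237 and 278 CPM in the other pair. Without that library the Wt value was -0.52 ± 0.10 (adjusted p = 0.0113), and in KO-labelled mice it was -0.07 ± 0.17 (adjusted p = 0.800). In the mitochondrial calcium uniporter list, 1 of 7 genes was called higher and 1 lower in Wt, and 2 and 1 in KO-labelled mice. Without the libraries with the higher B cell sums 1 gene of this list was called in each genotype. Mcub, the subunit that dampens the channel, fell by 2.72 ± 0.28 in Wt and fell by 2.51 ± 0.19 in KO-labelled mice, from 47.9 ± 16.4 to 7.44 ± 1.87 CPM in Wt.

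Around calcineurin itself, 9 of 11 calmodulins and regulators were tested, with 2 called higher in Wt mice (1 without the libraries with the higher B cell sums) and, with edgeR, 0 in KO-labelled mice, where 0 had an unadjusted p under 0.05. Chp1, a calcineurin B homologue, rose by 0.37 ± 0.09 in Wt on the log2 scale (adjusted p = 0.0220, edgeR), and was at 0.23 ± 0.11 in KO-labelled mice (adjusted p = 0.181). Of 12 genes for NFAT kinases and proteins that hold NFAT in the cytoplasm, 11 were tested, with 1 called higher and 1 lower in Wt and 2 and 0 in KO-labelled mice. These are 1 of 11 in each direction in Wt, no more than the 13.4% and 9.43% over all genes. Without the libraries with the higher B cell sums 1 of the 11 was called in Wt and 0 in KO-labelled mice, against 13.7% and 5.38% of all genes. Lrrk2, a kinase placed in the complex that holds NFAT back, was at 0.785 to 2.13 CPM in DN3 and at 74.9, 13.2, 12.8 and 115 CPM in the DN4 libraries of WT05, WT40, WT46 and WT48 and 42.2, 76.5 and 7.87 CPM for KO45, KO49 and KO51. Lrrk2 was thus highest in WT48 and lowest in KO51, as was the B cell sum. Homer3, which competes with calcineurin for NFAT, fell by 0.64 ± 0.13 in Wt (adjusted p = 0.00814) and was at -0.28 ± 0.16 in KO-labelled mice (adjusted p = 0.260).

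Downstream, all 13 partner transcription factors were tested, with 6 called higher in Wt, 7 in KO-labelled mice and 0 lower in either, against 13.4% and 11.2% of all genes called higher. Maf rose by 4.48 ± 0.48 in Wt, from 3.45 ± 0.466 to 80.9 ± 41.7 CPM, and by 2.98 ± 0.32 in KO-labelled mice. Irf4, which binds DNA together with NFAT, rose by 3.66 ± 0.59 and 3.58 ± 0.47. Mef2c rose by 4.28 ± 0.86 and 4.17 ± 0.76, with DN4 levels from 11.5 CPM in KO51 to 167 CPM in WT48. Irf4 and Mef2c are also genes of B cells, and their part in this list was not tested. Without the DN4 libraries with the higher B cell sums, 6 and 7 of the 13 were called.

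Of 17 known NFAT target genes of T cells 10 were tested, with 8 called higher and 1 lower in Wt and the same counts in KO-labelled mice. The 10 are not the whole list, and of the 8 called higher 2 (Cd40lg and Egr3, in both genotypes) are below the filter on low counts in DN3 libraries alone. These entered the test through DN4, where they were high, and the other 6 did not. Cd40lg, which encodes the CD40 ligand of helper T cells, had 0 counts in every Wt DN3 library and 29 to 129 counts in Wt DN4, at least 13.8-fold higher with 3 counts per library as the limit. Egr3, a factor induced by receptor signals, was at 0.354 to 1.17 CPM in Wt DN3 and 11.3 to 36.8 CPM in Wt DN4. Among the DN4 libraries Egr3 was highest in WT48 and lowest in KO51 (7.07 CPM), as was the B cell sum, and the part of B cells in it was not tested. Its values, like those of Cd40lg, are given as a description. Tnfrsf9, a costimulatory receptor, rose from 2.14 ± 0.219 to 36.3 ± 11.1 CPM (log2 fold change 4.04 ± 0.31, adjusted p = 0.000114, edgeR). The gene called lower was Il2ra, which the sort separates, and its fall by 6.39 ± 0.28 describes the gate. Without the DN4 libraries with the higher B cell sums 9 of the 10 were called in both genotypes. Of 6 target genes of NFAT5, 5 were tested, with 1 called higher and 1 lower in both genotypes (1 called in Wt and 0 in KO-labelled mice without the libraries with the higher B cell sums). Slc5a3, the myo-inositol transporter, fell by 1.77 ± 0.46 in Wt (adjusted p = 0.0246), with 86.9 CPM in the DN3 library of WT05 against 25.0 and 22.5 CPM in the other pair. Without that library it was at -0.89 ± 0.19 (adjusted p = 0.0144), and in KO-labelled mice it fell by 1.12 ± 0.20 (adjusted p = 0.00802). S100a4 had 0, 0 and 1 counts in Wt DN3 and 17 to 81 in Wt DN4, so that it too entered the test through DN4 alone. Between the genotypes edgeR, DESeq2 and limma-voom called 0 of the 63 genes of these 7 lists tested in DN3 and 0 of the 68 tested in DN4, with 0 and 6 at an unadjusted p under 0.05, where 1.39% and 5.46% of all genes were. In the interaction they called 0 of 68, with 4 at an unadjusted p under 0.05, against 3.59% of all genes.

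For each of the 9 genes, the protein-coding gene with the most similar pattern over the 13 libraries was found among 11512 genes, by Pearson's r of log2 CPM. All libraries share the 2 stages, so r was also computed after group means were subtracted, and it is a description only. Ppp3ca was most like Ripor2 (r = 0.975, 0.958 within groups), Ppp3cc most like Scn4a (0.986, 0.969) and Ppp3cb most like Tbc1d15 (0.894, 0.923). Ppp3r1 was most like Golph3 (0.924, 0.895) and Rcan1 most like Rad51c (0.940, 0.872). Nfatc1 was most like Ttc28 (0.983, 0.930), Nfatc2 most like Mast4 (0.940, 0.908), Nfatc3 most like Plcxd2 (0.969, 0.924) and Nfat5 most like Ankib1 (0.963, 0.971). Among the genes themselves Ppp3ca and Ppp3cc were the most alike (0.916, 0.918 within groups). Ppp3cb and Nfatc3 had an r of 0.248 over all libraries and 0.882 within groups.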

How the data were processed

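RNA of sorted DN3 and DN4 thymocytes was sequenced by the authors from stranded mRNA libraries (TruSeq, HiSeq), checked with deepTools, trimmed with Cutadapt, mapped with STAR and counted with featureCounts on mm10; the strand setting and annotation are not given in the sources used here. The deposited values are whole-number read counts per gene for 13 libraries, with 0 unused columns. Names, coordinates and exon lengths are from GENCODE M21 (GRCm38). Libraries held 5926848 to 14148661 counts; SDs are over mice, and a count of 0 allows 3 counts, which covers counting error only. Only the libraries of the groups compared entered a fit (all 13 for the interaction), made with edgeR 4.0.16 in R 4.3.3: filterByExpr (minimum count 10), TMM, quasi-likelihood test, Benjamini-Hochberg adjustment over all genes at 0.05, intervals from the fit. CPM use TMM-scaled library sizes. The mouse numbers name the same animals at both stages. DN3 and DN4 deviations from the group means correlated at 0.434, 0.283 and 0.339 (KO45, KO49, KO51) and 0.231, 0.234 and 0.124 (WT05, WT46, WT48) over 13361 genes, so the mouse was also fitted as a block. DESeq2 1.42.0 and limma-voom (limma 3.58.1) were alternatives; the script was tested on simulated counts. Named from each pathway list were up to 3 genes per direction with the largest change among those called in Wt mice; some that the rule names are not reported here. The genes and lists were chosen with earlier results of these data known, and the runs without libraries of high B cell sums after the data were seen.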

Additional observations from a re-analysis of the deposited data

How the results depend on the processing

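Over the 9 genes, 5 comparisons and all alternatives, 732 values kept their direction and side of the threshold, 13 passed it newly, 15 missed it newly and 32 changed sign. All 32 were changes of sign of values that were not called. Library totals in place of TMM moved the median of all genes by 0.186 (Wt stages), 0.235 (genotypes in DN3) and -0.182 (interaction); calls in the Wt stage comparison fell from 2903 to 1782, of which 77.8% instead of 58.8% were higher in DN4. Signs then changed for Nfat5 between Wt stages (0.25), for Rcan1 (0.17), Nfatc1 (0.17) and Nfatc3 (0.040) between genotypes in DN3, and for Nfatc2 (-0.093) and Nfat5 (-0.10) in the interaction. Nfat5 between Wt stages was 0.031 with limma-voom, 0.064 with the mouse as a replicate block and 0.011 without libraries with Y-linked counts. Without those libraries Ppp3cb was -0.056 between Wt stages and 0.00027 between genotypes in DN4, and Ppp3ca and Rcan1 were -0.054 and 0.022 between genotypes in DN3; Nfatc1 between Wt stages was 0.76 (adjusted p = 0.0615), and all calls numbered 1723 between Wt stages, 1 in DN3 and 1 in DN4. Without the DN4 libraries with the higher B cell sums, 1 of the 9 genes and 1766 genes in all were called between Wt stages, and 0 of the 9 and 714 in all between KO-labelled stages, where Ppp3ca was -0.23 and Nfat5 -0.016; between genotypes in DN4, Ppp3cc was 0.13 and Nfat5 0.10. The mouse as a replicate block gave 6 of the 9 and 4499 genes in KO-labelled mice and changed no call of the 9 genes in Wt mice or in the interaction. Limma-voom called 1 of the 9 between KO-labelled stages. With no filter, 1 gene was called in all between genotypes in DN3 and 11 in DN4. DESeq2 called 3 and 51, and 2 in the interaction, none of them among the 9. For Ppp3cc between KO-labelled stages the adjusted p was 0.0151 with no filter, 0.0178 with DESeq2 and 0.0482 with all 13 libraries in one fit.

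With each library left out, 2 to 4 of the 9 genes (1845 to 3393 in all) were called between Wt stages, 1 to 4 (1407 to 2790) between KO-labelled stages, and 0 between genotypes (0 to 1 in all in DN3, 0 to 8 in DN4). Between Wt stages Ppp3cb ranged from -0.0056 to 0.13 and Nfat5 from -0.36 to 0.41, and between KO-labelled stages Nfat5 from -0.015 to 0.25. Between genotypes Ppp3ca ranged from -0.054 to 0.19 and Rcan1 from -0.26 to 0.092 in DN3, and Ppp3cc from -0.27 to 0.18 and Nfatc3 from -0.045 to 0.21 in DN4. In the interaction Nfatc2 ranged from -0.056 to 0.37 and Nfat5 from -0.25 to 0.50. In KO-labelled mice Nfatc2 was called between stages without the DN3 library of KO45 (0.74, adjusted p = 0.0420) and Ppp3ca without the DN4 library of KO51 (0.91, adjusted p = 0.0113). Of the pathway lists, the calls in Wt and KO-labelled mice were 5 to 7 and 3 to 5 (calcium entry), 1 to 2 and 1 to 4 (uniporter), 1 to 3 and 0 (calmodulins), 2 to 3 and 1 to 2 (kinases), 6 to 7 and 7 to 8 (partners), 9 and 9 to 10 (NFAT targets), and 1 to 2 and 2 (NFAT5 targets). The cause of these differences was not tested. Nfatc4 is below what this depth can test, and Rcan1 and Ppp3cc have the fewest counts of the others.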
